A study of Mus musculus with 8 samples.

Results

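The monolayer of thymic epithelial cells (TECs) that forms on laminin-coated plates was compared with the cells as they left the embryonic thymus. The comparison used 4 of the 8 bulk RNA sequencing libraries of the series, 2 of *in vivo* TECs and 2 of 2D-cultured TECs, and kept the genes that reached 1 CPM (a count scaled to a library of 1000000 counts) in at least 2 of these 4 libraries, which were 14363 of 56923 genes. All libraries came from untreated wild-type (WT) C57BL/6J embryos at E16.5. Thymi were digested with TrypLE, and EpCAM-positive live cells were sorted after staining for lineage markers of blood, endothelial and mesenchymal cells, without separating cortical from medullary TECs. *In vivo* TECs were lysed straight after the sort. 2D-cultured TECs were plated on laminin, kept in TEC medium with the growth factor FGF7 and lysed as a confluent monolayer at day 3. D3 organoids, grown from the same kind of sorted cells in Matrigel with TEC medium and lysed on the same day, served as a culture reference. Sorted cells were collected in medium with the ROCK inhibitor thiazovivin. Organoid medium also held it for the first 2 days, and whether the 2D cultures received it after plating is not stated. The libraries read the 3′ ends of polyadenylated transcripts (QuantSeq).

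Thymic epithelium forms the niche in which T cells develop. The transcription factor FOXN1 drives its differentiation, and cortical TECs then attract lymphoid progenitors with chemokines, present Notch ligand to them and display peptides made by a specialised proteasome and by lysosomal proteases. Medullary TECs present self-antigens to the maturing thymocytes, and both kinds carry MHC class II, which most epithelia lack unless they are stimulated by cytokines.

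Total counts on genes were between 5710676 and 7003886 in the 4 libraries, and between 16748 and 19233 genes had a count. Values below are CPM on library sizes scaled with TMM factors, n is 2 in every group, and fold changes are log2 ratios of 2D-cultured over *in vivo* TECs with their standard errors from edgeR's quasi-likelihood test. A gene was called higher or lower at a Benjamini-Hochberg adjusted p of at most 0.05 over all genes kept. Libraries are labelled as biological replicates. The p-values rest on the spread between the 2 libraries of a group, pooled over all 8 libraries of the series, organoids included. An exact two-sided permutation test of a single gene could not go below p = 0.333 with these numbers. In these bulk samples, fewer cells of a type and less RNA of a gene per cell cannot be told apart.

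Between 2D-cultured and *in vivo* TECs 6640 genes differed, 46.2% of those kept. Of these, 3092 (21.5% of genes kept) were higher and 3548 (24.7%) were lower in 2D-cultured TECs. Both shares are the background for the counts of list members in this comparison. At least 4-fold changes were fitted for 1075 of the genes called higher and 1656 of those called lower. The median log2 fold change over all genes was -0.06. Without scaling beyond library size it was -0.24, and the calls split into 2421 higher and 4211 lower. Libraries of the groups did not overlap for 72.4% of all genes (34.3% higher and 38.1% lower in 2D), and 5 of the called genes had overlapping libraries. The filter itself admitted 1142 genes through the *in vivo* libraries alone and 485 through the 2D libraries alone, so that counts over the kept genes include genes that had to differ. The share of counts on 18S ribosomal RNA was between 20.6% and 24.3% in the 4 libraries, and that on mitochondrial mRNAs was 1.73% and 1.66% *in vivo* against 0.834% and 1.09% in 2D.

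**Figure D1:**
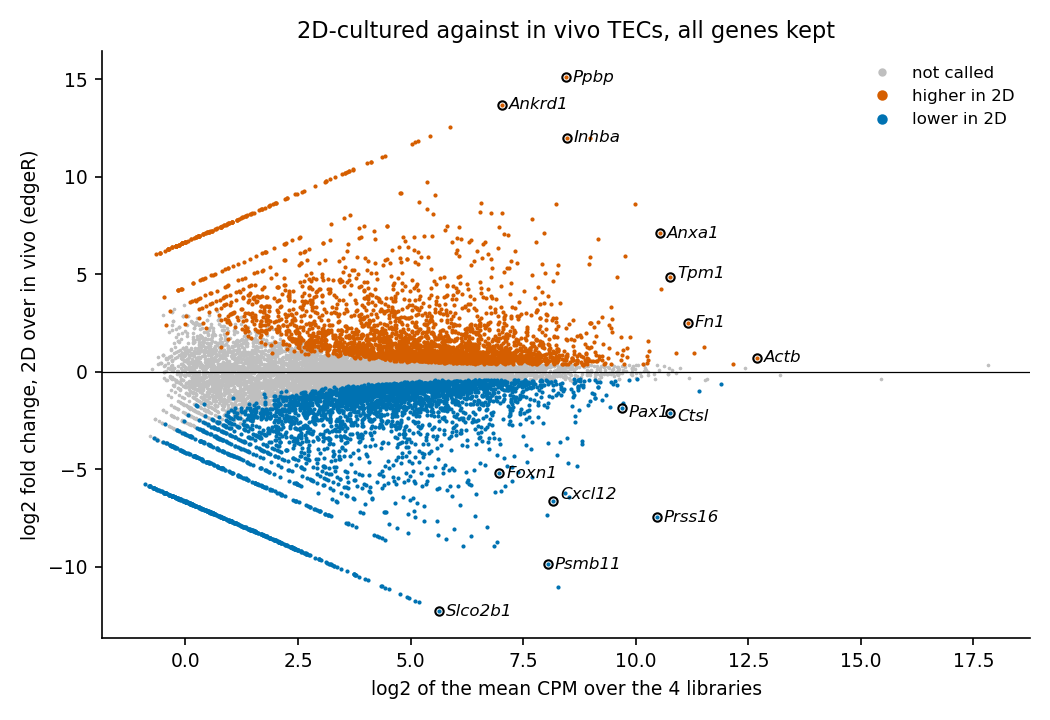
Mean expression (log2 CPM over the 4 libraries, x axis) and log2 fold change of 2D-cultured over *in vivo* TECs (y axis) for the 14363 genes kept, with called genes coloured by direction and leading genes labelled. Of the labelled genes, *Slco2b1* lies lowest and *Ppbp* highest, while *Actb* and *Pax1* lie nearest to no change.

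Both groups were epithelial by their markers. Of 10 pan-epithelial genes, 8 were called higher in 2D-cultured TECs and 0 lower, with a median log2 fold change of 1.71. *Epcam*, the surface protein used for the sort, was at 188 and 202 CPM *in vivo* and 802 and 716 CPM in 2D (1.96 ± 0.15). *Esrp1*, a regulator of epithelial splicing, was at 133 and 135 against 154 and 156 CPM and was not called (0.21 ± 0.15, adjusted p = 0.267). The 26 thymocyte genes, of which 20 were kept, summed to 1291.6 and 587.7 CPM in the *in vivo* libraries. In 2D they summed to 79.7 and 78.8 CPM, of which *Satb1* made 39.1 CPM in each library. Thymocyte RNA was thus present in the sorted cells, more of it in replicate 1, and the T-cell genes *Cd3d*, *Lat*, *Ptcra* and *Rag2* were at 0 in both 2D libraries. Without *in vivo* replicate 1, 2636 genes were called higher and 3100 lower. The 18 mesenchymal genes (11 kept) summed to 86.3 and 86.8 CPM *in vivo* and 80.5 and 94.0 CPM in 2D. The 17 myeloid and dendritic genes (4 kept) summed to at most 12.2 CPM in any of the 4 libraries.

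The factors that specify the thymic epithelial fate fell unequally. Of 11 kept members of this list, 8 were called lower and 0 higher, beside 24.7% lower over all genes, with a median log2 fold change of -0.95. *Foxn1* was at 219.5 and 270.0 CPM *in vivo* and 8.42 and 4.77 CPM in 2D (-5.21 ± 0.26, adjusted p = 4.35e-11), the steepest fall of the list. *Trp63*, which encodes the p63 factor that maintains stratified and thymic epithelial progenitors, fell from 112 and 134 CPM to 13.98 and 14.1 CPM (-3.13 ± 0.19). The pharyngeal pouch factors *Pax1* and *Pax9* fell less and remained well above the floor. *Pax1* was at 1219.7 and 1374 CPM *in vivo* and 371 and 333 CPM in 2D (-1.88 ± 0.16), and *Pax9* at 366 and 435 CPM and 164 and 164 CPM (-1.29 ± 0.15). *Eya1*, another pouch factor, and *Meis1*, which encodes a cofactor of HOX proteins, fell by smaller steps, with log2 fold changes of -0.95 ± 0.18 and -1.09 ± 0.19. By contrast, the third-pouch gene *Hoxa3* was at 25.9 and 30.4 CPM *in vivo* and 40.0 and 40.6 CPM in 2D and was not called (0.51 ± 0.21). It was near the threshold (adjusted p = 0.053) and 4 alternatives called it higher.

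Every one of the 13 cortical TEC genes was called lower in 2D-cultured TECs, with a median log2 fold change of -6.40. One of them, the aminopeptidase gene *Enpep*, was not called without 2D replicate 2. Peptide-generating enzymes were among the losses. *Psmb11*, which encodes the catalytic β5t subunit of the thymoproteasome, was at 513 and 547 CPM *in vivo* and 0.538 and 0.551 CPM in 2D, where 3 reads or fewer were counted in each library, a ratio of 977-fold (95% counting interval 449 to 2664). *Prss16*, the gene of the thymus-specific serine protease, fell from 2791 and 2857 CPM to 16.5 and 15.8 CPM (-7.45 ± 0.18, adjusted p = 1.83e-14). *Ctsl*, the gene of the lysosomal protease cathepsin L, fell less steeply, from 2908 and 2747 CPM to 705 and 606 CPM (-2.11 ± 0.16), and these protease genes were among the 5 with the largest loss in CPM. *Tbata*, a thymus and brain gene, was at 688 and 546 CPM *in vivo* and 0.179 and 0.367 CPM in 2D, a ratio of 2241-fold (95% counting interval 767 to 10869). *Cd83*, whose product stabilises MHC class II on cortical TECs, was at 136 and 152 CPM against 0.538 and 0 CPM. *Ly75*, which encodes the cortical marker CD205, retained more of its transcript, with 354 and 415 CPM *in vivo* and 22.9 and 27.2 CPM in 2D (-3.94 ± 0.20). No library of one group overlapped with the other for any of these genes, which was also so for 72.4% of all genes.

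**Figure D2:**
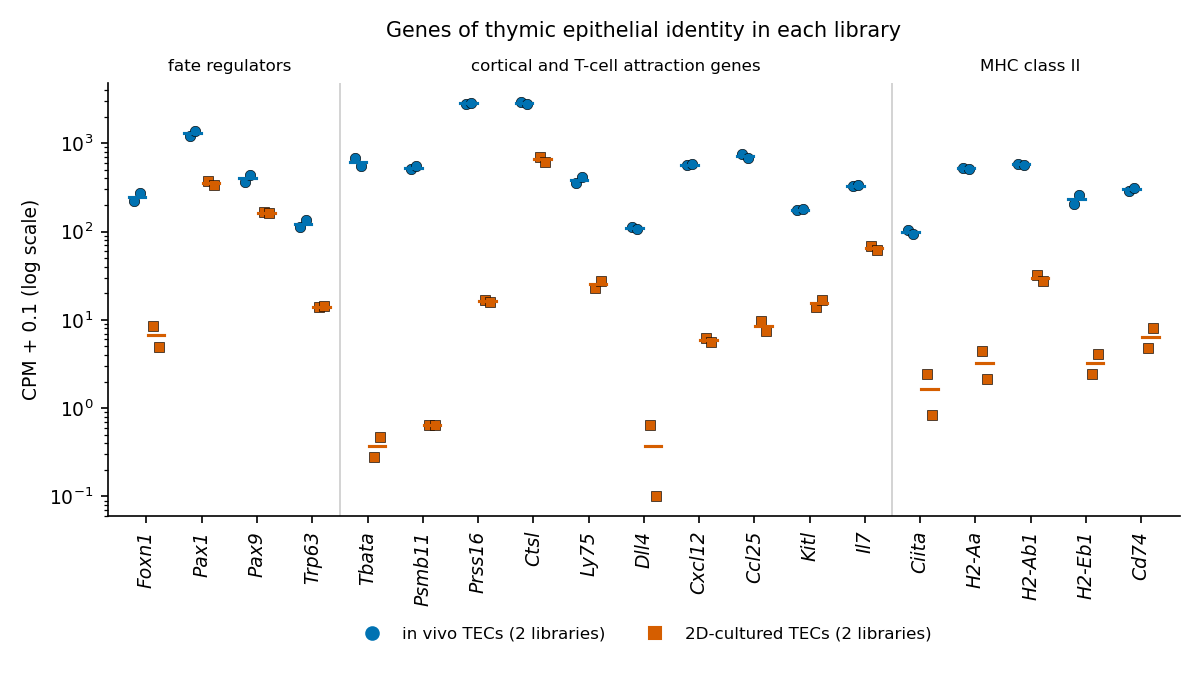
Expression (CPM plus 0.1, log axis) of thymic fate factors, cortical and thymocyte-supporting genes and MHC class II genes in *in vivo* and 2D-cultured TECs, with points for libraries and bars for the means of 2. *Pax1* and *Pax9* fall by less than 4-fold, and *Tbata*, *Psmb11* and *Dll4* drop to below 1 CPM.

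The promoter of *Prss16*, an abundant cortical gene with the core word of the FOXN1 site, is printed below as an example. It is the 250 bases before the start of the gene's canonical transcript in GENCODE (GRCm39), at chr13:22193912-22194161 on the minus strand, and capitals mark GACGC or its reverse complement GCGTC. The word is at -137 and -107 from the start.
Prss16: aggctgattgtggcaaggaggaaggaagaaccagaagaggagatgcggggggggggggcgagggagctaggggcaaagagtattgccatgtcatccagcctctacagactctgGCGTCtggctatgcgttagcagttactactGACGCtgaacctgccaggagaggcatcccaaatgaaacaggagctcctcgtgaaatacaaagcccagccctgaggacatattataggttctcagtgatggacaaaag
The word, searched on both strands, is short and common, and binding of FOXN1 to it was not tested. It was found in 6 of 13 promoters of the cortical list (46.2%), which were those of *Ccl25*, *Ctsl*, *Cxcl12*, *Enpep*, *Prss16* and *Psmb11*, against 31.2% of 14327 promoters of kept genes, 29.1% of those of genes called higher and 30.8% of those of genes called lower.

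Signals that recruit and nourish thymocytes were lost in the same libraries. Of 13 kept attraction and growth factors, 9 were called lower and 3 higher, with a median log2 fold change of -3.83. *Ccl25*, *Cxcl12*, *Il7* and *Kitl* are also members of the cortical list, so the counts of these lists are not separate. *Ccl25*, the chemokine for CCR9-positive progenitors, fell from 761 and 681 CPM to 9.68 and 7.34 CPM (-6.40 ± 0.25), and *Cxcl12*, the ligand of CXCR4, from 564 and 577 CPM to 6.09 and 5.51 CPM (-6.61 ± 0.20). The cytokine genes were reduced by smaller factors. *Il7*, which keeps early thymocytes alive, was at 325 and 336 CPM *in vivo* and 69.3 and 61.5 CPM in 2D (-2.34 ± 0.17), and *Kitl*, the stem cell factor gene, at 175 and 178 CPM and 13.8 and 16.7 CPM (-3.53 ± 0.18). *Flt3l* and *Il15* fell from at least 18.6 CPM in each *in vivo* library to at most 2.02 CPM in each 2D library, with 15.4% of the 3′ sequence of *Flt3l* shared with a gene model. Going the other way, *Ccl21a*, a chemokine of medullary TECs, was at 28.1 and 26.4 CPM *in vivo* and 132 and 140.4 CPM in 2D (2.32 ± 0.20), although 60.5% of its 3′ sequence is shared with near-identical *Ccl21* copies and its count is uncertain. *Tslp*, a cytokine gene of stressed barrier epithelia, was called higher at 9.50 and 5.69 CPM (3.64 ± 0.82).

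Notch ligand genes changed in opposite directions. *Dll4*, the ligand that commits progenitors to the T lineage, was at 112 and 108 CPM *in vivo* and 0.538 and 0 CPM in 2D, a ratio of 403-fold (95% counting interval 137 to 1954). *Jag2* fell from 60.4 and 88.4 CPM to 1.61 and 5.51 CPM (-4.39 ± 0.34), while *Jag1* rose from 48.6 and 28.6 CPM to 439 and 424 CPM (3.49 ± 0.21). Of 13 genes for Notch ligands, receptors and targets, 1 was called higher (*Jag1*) and 7 lower. *Dll4* is also a member of the cortical list. The target *Hey1* fell from 179 and 159 CPM to 18.5 and 15.2 CPM (-3.33 ± 0.18), *Hes1* from 629 and 429.6 CPM to 278 and 231 CPM (-1.06 ± 0.21) and the receptor gene *Notch1* from 121 and 99.1 CPM to 46.4 and 60.2 CPM (-1.05 ± 0.19). *Dtx1*, a Notch target of T-cell progenitors, was at 35.3 and 19.8 CPM *in vivo* and 0 in 2D. Thymocyte genes were higher in the same *in vivo* libraries, and their part in the Notch target values was not tested.

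The MHC class II pathway went down as a whole, with 11 of 11 kept genes called lower and a median log2 fold change of -5.64. *Ciita*, the transactivator of the class II genes, fell from 103 and 92.7 CPM to 2.33 and 0.734 CPM (-5.97 ± 0.38, adjusted p = 7.02e-10). Of the chains, *H2-Aa* fell from 529.9 and 506 CPM to 4.30 and 2.02 CPM (-7.34 ± 0.25), *H2-Eb1* from 206 and 259 CPM to 2.33 and 4.04 CPM (-6.18 ± 0.28) and *H2-Ab1* from 589 and 573 CPM to 32.3 and 27.4 CPM (-4.28 ± 0.18). *Cd74*, the invariant chain that guides class II to the endosome, was at 291 and 309 CPM *in vivo* and 4.66 and 7.89 CPM in 2D (-5.58 ± 0.25). Among the remaining members, the call of *Ctss* was lost without 2D replicate 1 or without *in vivo* replicate 1, and *Ifi30*, the gene of a lysosomal thiol reductase, fell from 157 and 115 CPM to 35.5 and 29.4 CPM (-2.07 ± 0.19). Y boxes (ATTGG, both strands), an element of class II promoters, were found in 6 of 11 promoters of the list against 35.2% of all promoters. Myeloid and dendritic genes, which mark other class II-positive cells, were at most 12.2 CPM in sum in any of these libraries. The part of non-epithelial cells in the *in vivo* class II values was not tested.

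Class I presentation changed by part. The immunoproteasome genes fell, *Psmb9* from 111 and 109 CPM to 1.08 and 2.20 CPM (-6.06 ± 0.33) and *Psmb10* from 287 and 308 CPM to 8.24 and 11.9 CPM (-4.88 ± 0.21). *Tap1*, which carries peptides into the endoplasmic reticulum, fell from 69.6 and 61.9 CPM to 8.06 and 10.1 CPM (-2.85 ± 0.25). The heavy chain gene *H2-K1*, in contrast, was at 189 and 156 CPM *in vivo* and 235 and 178 CPM in 2D and was not called (0.26 ± 0.17, adjusted p = 0.239), with 14.98% of its 3′ sequence shared with other class I genes. In all, 2 of 14 class I genes were called higher and 7 lower. The interferon-stimulated genes, many of which act beside these, were called lower for 18 of 22 kept members and higher for 0, with a median log2 fold change of -2.37. *Irf1*, an interferon-induced transcription factor gene, fell from 181 and 159 CPM to 36.6 and 33.4 CPM (-2.28 ± 0.19) and *Oasl2* from 151 and 166 CPM to 25.1 and 20.6 CPM (-2.79 ± 0.21). *Ifi44* stood apart from the list at 115 and 128 CPM *in vivo* and 89.8 and 93.3 CPM in 2D, and was not called (-0.41 ± 0.23, adjusted p = 0.166).

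Medullary genes split into 8 called higher and 8 called lower among 19 kept, and the count of those lower was 5 without 2D replicate 2. The members called lower included regulators of self-antigen display and the RANK receptor. *Aire*, the regulator of self-antigen display, was at 5.12 and 9.99 CPM *in vivo* and 0 in both 2D libraries, at least 13.9-fold lower over the floor of 3 counts a library, and *Fezf2*, a second such regulator, at 6.48 and 12.2 CPM and 0, at least 17.2-fold lower but not called by DESeq2's Wald test. *Tnfrsf11a*, which encodes RANK, fell from 19.4 and 15.1 CPM to 4.30 and 2.20 CPM (-2.40 ± 0.49). Of the kinase and NF-κB subunit genes downstream, *Map3k14* fell from 55.1 and 54.97 CPM to 3.05 and 5.87 CPM (-3.62 ± 0.32) and *Nfkb2* from 91.8 and 119 CPM to 33.3 and 38.9 CPM (-1.55 ± 0.19). In the whole list of RANK, CD40 and lymphotoxin receptor signalling, 6 of 11 were called lower, 3 without 2D replicate 2, and 2 higher. *Ltbr* was not called (77.3 and 96.6 against 104 and 104.6 CPM). Of the 2 called higher, *Tnfrsf12a*, the TWEAK receptor gene, was at 0 *in vivo* and 33.0 and 49.6 CPM in 2D, at least 88.9-fold higher over the floor, and the adaptor gene *Traf1* rose from 3.92 and 3.19 CPM to 11.3 and 8.81 CPM (1.497 ± 0.53, adjusted p = 0.0277). *Traf1* was not called without 2D replicate 1, 2D replicate 2 or *in vivo* replicate 2. Of the 8 medullary list members called higher, 5 were keratin and claudin genes that many other epithelia share, and the chemokine gene *Ccl21a* was another. *Krt5* was at 262 and 246 CPM *in vivo* and 736 and 635 CPM in 2D (1.43 ± 0.17), *Krt14* at 19.4 and 21.9 CPM and 905 and 1035 CPM (5.55 ± 0.20), and *Cldn4* at 9.72 and 10.7 CPM and 1086 and 1191 CPM (6.80 ± 0.20).

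Among the 15 genes with the largest fall by the naming rule, 14 were at 0 in both 2D libraries, and the exception was *Tbata*. The rule ranks by fitted fold change, which favours genes at 0. *Klf15*, among the 15, was at least 49.7-fold lower over the floor. *Dll4*, with 3 counts in 2D replicate 1 and 0 in 2D replicate 2, had a ratio of 403-fold and is not among them. *Slco2b1*, an organic anion transporter, was at 96.5 and 102 CPM *in vivo*, at least 182-fold above 2D over the floor. *Kremen2*, a co-receptor of the Wnt antagonist DKK1, was at 75.6 and 69.7 CPM (133-fold at least), *Umodl1* at 72.8 and 63.6 CPM and the cation channel gene *Trpm2* at 55.4 and 69.0 CPM. Also lost were *Opcml*, *Sv2b*, *Ajap1* and *Klf15*, at between 24.6 and 46.6 CPM in each *in vivo* library. Lymphocyte transcripts made up another set of this group. *Gzma* was at 78.3 and 30.3 CPM, *Cd3d* at 58.0 and 33.6 CPM, and the γδ T-cell receptor constant genes *Trgc1* and *Trgc2*, of whose 3′ sequence 31.7% and 33.3% is shared among the family, at 53.6 and 13.05 CPM and 57.6 and 24.6 CPM. All 4 were higher in *in vivo* replicate 1, as was the thymocyte sum, and DESeq2's Wald test did not call *Trgc2*. Parathyroid genes, from the organ that buds off the same pouch, were called lower for 3 of 4 kept members. *Pth*, the parathyroid hormone gene, fell from 67.2 and 48.6 CPM to 2.15 and 0.918 CPM (-5.21 ± 0.46) and the secretory granule gene *Chga* from 56.6 and 40.9 CPM to 1.08 and 0.918 CPM (-5.58 ± 0.52).

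Immediate-early genes were higher in the freshly sorted cells. Of 21 genes of the response to tissue dissociation, 13 were called lower in 2D and 4 higher, with a median log2 fold change of -1.67. *Fos* was at 377 and 360.1 CPM *in vivo* and 10.9 and 19.3 CPM in 2D (-4.61 ± 0.25), *Egr1* at 667 and 637 CPM and 65.0 and 60.2 CPM (-3.38 ± 0.23), and *Jun* at 672 and 655 CPM and 146 and 125 CPM (-2.29 ± 0.17). In D3 organoids, *Jun* was at 31.5 and 22.04 CPM and *Junb* at 13.1 and 11.1 CPM, below 146 and 125 and 137 and 125 CPM in 2D. *Ier3* (38.5 and 63.6 against 258 and 251 CPM) and *Klf4* (73.5 and 82.6 against 205 and 213 CPM) were among the members called higher in 2D. *In vivo* TECs went through digestion and sorting just before lysis and 2D-cultured TECs 3 days earlier, so this part of the difference and culture itself cannot be told apart.

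The monolayer carried fewer transcripts of proliferation genes than the fresh cells. Of 43 S-phase genes, 35 were called lower and 0 higher (median log2 fold change -1.05), and of 54 G2/M genes, 39 were called lower and 1 higher (median -0.97). *Mki67*, which encodes Ki67, was at 271 and 287 CPM *in vivo* and 65.2 and 67.7 CPM in 2D (-2.07 ± 0.16, adjusted p = 1.27e-08). *Top2a*, the topoisomerase of condensing chromosomes, fell from 592 and 600.4 CPM to 180.1 and 175 CPM (-1.75 ± 0.16) and *Uhrf1*, a factor of replication-coupled DNA methylation, from 82.0 and 59.0 CPM to 22.4 and 11.9 CPM (-2.03 ± 0.26). Reductions of the replication helicase were smaller, with *Mcm6* at 146 and 125 CPM *in vivo* and 82.6 and 63.0 CPM in 2D (-0.89 ± 0.17). *Hmgb2* fell from 279 and 288 CPM to 66.1 and 61.5 CPM (-2.15 ± 0.17), with 21.5% of its 3′ sequence shared with other genes. Thymocytes also divide, and their part in the *in vivo* values of these genes was not tested. Without *in vivo* replicate 1, which held more thymocyte RNA, 30 S-phase and 30 G2/M genes were called lower.

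Of 13 genes for G1 cyclins, their kinases and kinase inhibitors, 7 were called higher, 4 with a limit of 2-fold, and 3 lower, 5 without scaling beyond library size, with a median log2 fold change of 0.58. *Cdkn1a*, which encodes p21, was at 21.3 and 21.9 CPM *in vivo* and 512 and 583 CPM in 2D (4.66 ± 0.25, adjusted p = 8.15e-11). *Cdkn2b*, which encodes p15, rose from 1.36 and 1.53 CPM to 174 and 147 CPM (6.77 ± 0.33) and *Cdkn2a*, the p16 and p19ARF locus, from 1.023 and 1.11 CPM to 52.9 and 56.2 CPM (5.64 ± 0.38). The 3 members called lower were all inhibitors. *Cdkn2c*, which encodes p18, was at 3.58 and 2.36 CPM *in vivo* and 0 in both 2D libraries, at least 5.46-fold lower over the floor. *Cdkn1c*, which encodes p57, fell from 164 and 169 CPM to 96.6 and 124 CPM (-0.59 ± 0.19) but was not called without 2D replicate 1 or *in vivo* replicate 2. *Cdkn2d* fell from 15.9 and 19.3 CPM to 7.53 and 7.53 CPM (-1.22 ± 0.27), and *Cdkn1b* (64.6 and 57.1 against 48.2 and 48.6 CPM) was not called. The G1 cyclin gene *Ccnd1* rose from 18.1 and 16.8 CPM to 640.0 and 536 CPM (5.08 ± 0.21), *Ccnd2* from 941 and 1056 CPM to 1512 and 1468 CPM (0.58 ± 0.14) and their partner *Cdk6* from 189 and 135 CPM to 274 and 316 CPM (0.87 ± 0.19). Of 16 p53 targets, 13 were called higher, 8 without 2D replicate 2, and 2 lower. *Ccng1* rose from 65.2 and 87.6 CPM to 329 and 291 CPM (2.02 ± 0.18), *Mdm2* from 80.3 and 86.9 CPM to 184 and 156 CPM (1.022 ± 0.16) and the death receptor gene *Eda2r* from 1.36 and 3.47 CPM to 30.6 and 39.8 CPM (3.82 ± 0.40), whereas *Sesn1* fell from 42.0 and 32.2 CPM to 8.06 and 1.84 CPM (-2.89 ± 0.38).

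**Figure D3:**
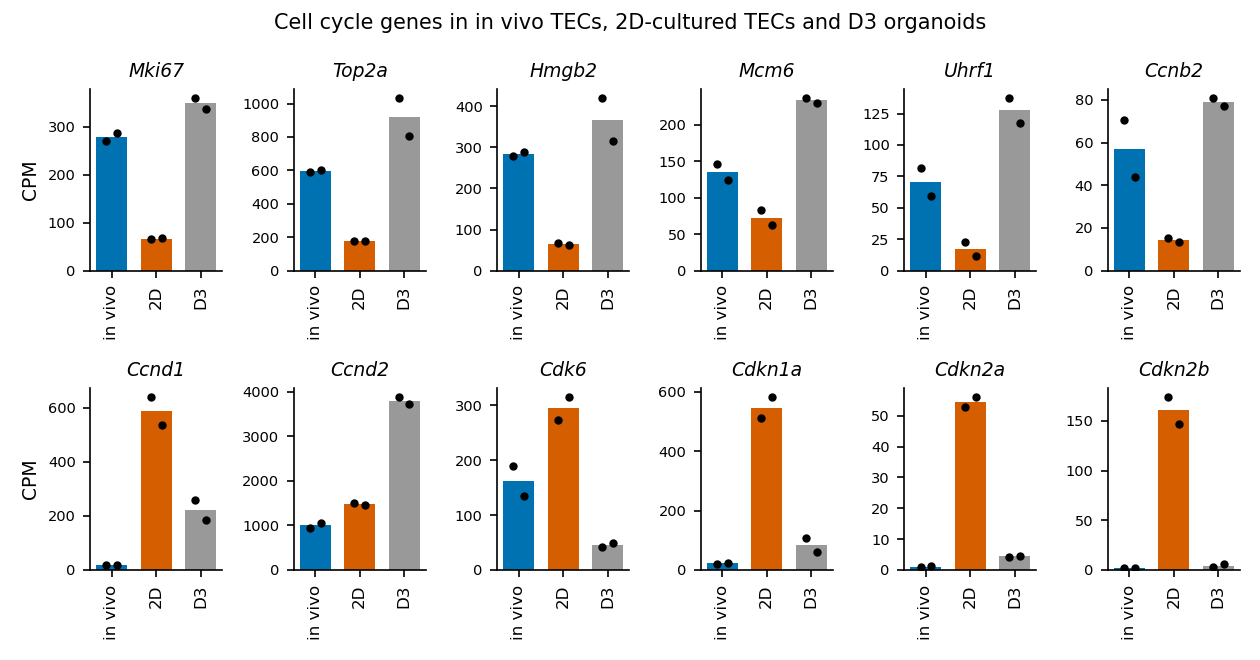
CPM of proliferation genes, G1 cyclins and kinase inhibitors in *in vivo* TECs, 2D-cultured TECs and D3 organoids, with bars for the mean of 2 libraries and points for each library. *Mki67* and *Top2a* are lowest in 2D, and *Cdkn1a*, *Cdkn2a* and *Cdkn2b* are highest there.

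Of the 5 largest gains in CPM, 3 were of actin cytoskeleton genes, *Actb*, *Tpm1* and *Cald1*. Of 25 actin and contractile genes kept, 21 were called higher, beside 21.5% over all genes, and 1 lower, with a median log2 fold change of 2.40. *Tpm1*, a tropomyosin of stress fibres, rose from 108 and 126 CPM to 3403 and 3324 CPM (4.84 ± 0.18, adjusted p = 1.27e-12) and *Cald1*, the actomyosin regulator caldesmon, from 139 and 165 CPM to 2888 and 2855 CPM (4.24 ± 0.16). *Actb*, already abundant, rose from 4852 and 5173 CPM to 8429 and 8099 CPM (0.72 ± 0.14), and 9.47% of its 3′ sequence is shared with other genes. *Acta2* and *Tagln*, smooth muscle genes near the floor *in vivo*, were expressed in 2D. *Acta2* was at 2.05 and 0.416 CPM *in vivo* and 133 and 104.6 CPM in 2D (6.66 ± 0.39), and *Tagln* at 1.54 and 0.694 CPM and 53.8 and 65.2 CPM (5.76 ± 0.41). *Mylk*, the myosin light chain kinase gene, was the list member called lower and fell from 91.1 and 115 CPM to 3.23 and 2.39 CPM (-5.19 ± 0.32). Outside the list, the smooth muscle myosin gene *Myh11* was also called lower, from a mean of 77.8 CPM *in vivo* to 2 counts in each 2D library. Mesenchymal genes did not rise as a list in these libraries, with 1 of 11 kept called higher and 6 lower.

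The promoter of *Vcl*, the gene of the adhesion protein vinculin, is printed as an example with a CArG box, the element bound by serum response factor. It is again the 250 bases before the start of the canonical transcript (GRCm39), at chr14:20979216-20979465 on the plus strand, with the box in capitals at -227.
Vcl: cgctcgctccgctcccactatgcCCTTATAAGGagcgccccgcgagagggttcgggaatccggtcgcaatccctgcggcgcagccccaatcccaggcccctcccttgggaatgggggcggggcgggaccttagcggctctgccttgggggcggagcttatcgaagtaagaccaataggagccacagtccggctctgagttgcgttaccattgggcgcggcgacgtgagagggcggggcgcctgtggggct
CArG boxes were found in 5 of 25 promoters of the list (20.0%), among them those of *Cnn2*, *Srf*, *Tagln* and *Vcl*, against 1.23% of all promoters, 1.59% of those of genes called higher and 0.96% of those of genes called lower. The TEAD word GGAATG, searched on both strands, was in 10 of 25 promoters of the list (40.0%) against 11.7% of all promoters. Binding at either element was not tested. *Vcl* rose from 47.6 and 42.1 CPM to 393 and 418 CPM (3.18 ± 0.17), while the gene of serum response factor, *Srf*, was at 2.22 and 1.80 CPM *in vivo* and 1.61 and 2.39 CPM in 2D and was not called (-0.01 ± 0.93, adjusted p = 0.997).

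Targets of YAP and TAZ, the transcriptional co-activators that respond to spreading and stiffness, were called higher for 15 of 21 kept genes and lower for 2, with a median log2 fold change of 1.75. *Ankrd1* was at 0 in both *in vivo* libraries and at 276 and 250.4 CPM in 2D, at least 567-fold higher over the floor. *Ccn2*, the connective tissue growth factor gene, rose from 0.341 and 1.39 CPM to 300.0 and 225 CPM (8.14 ± 0.40), and *Myof* from 57.5 and 82.9 CPM to 279 and 355 CPM (2.17 ± 0.19). The list was not uniform, since *Ccdc80* fell from 118 and 154 CPM to 50.9 and 46.6 CPM (-1.48 ± 0.17) and *Rbms3* was not called (222 and 259.9 against 266 and 281 CPM). The TEAD word was in 6 of 21 promoters of this list (28.6%), those of *Amotl2*, *Axl*, *Ccn1*, *Ccn2*, *Nuak2* and *Ptpn14*.

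**Figure D4:**
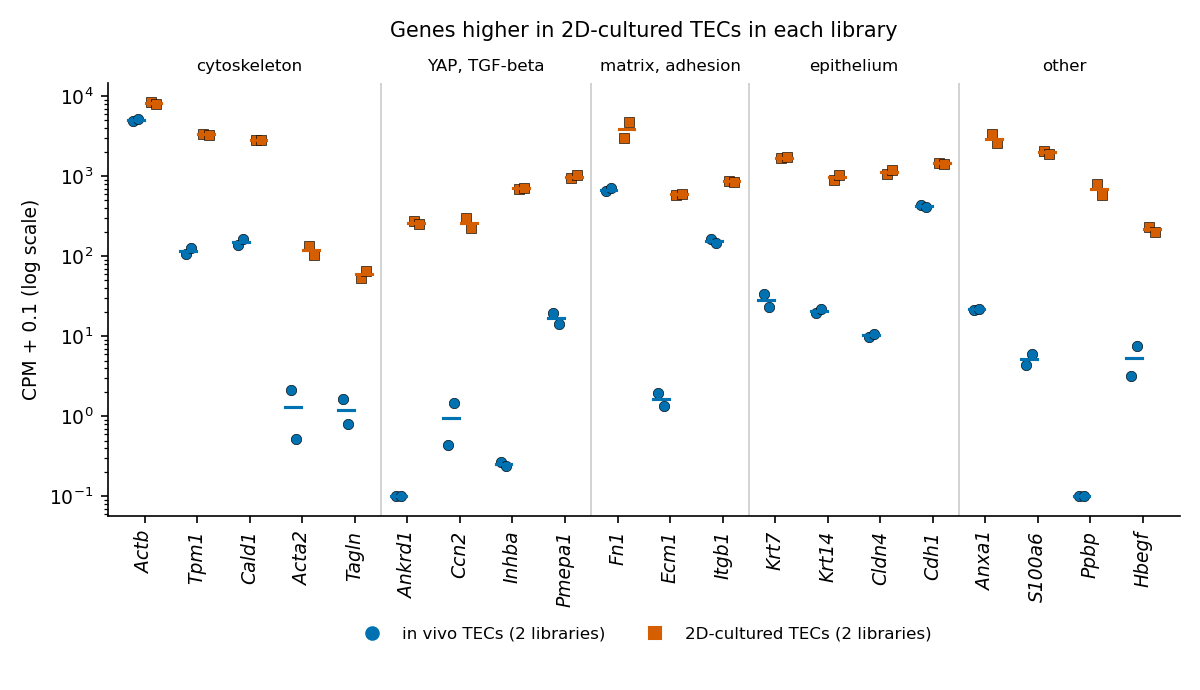
Expression (CPM plus 0.1, log axis) of cytoskeletal, YAP and activin, matrix and adhesion, keratin and junction, and secreted-factor genes in *in vivo* and 2D-cultured TECs, with points for libraries and bars for the means of 2. Every gene shown is higher in both 2D libraries, and *Ankrd1* and *Ppbp* are at 0 CPM *in vivo*.

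The activin ligand gene was among the steepest gains. *Inhba*, which encodes the activin A subunit, had 1 read in each *in vivo* library and was at 699.5 and 719 CPM in 2D, a ratio of 4634-fold (95% counting interval 1282 to 38267). Its antagonist *Fst*, follistatin, rose from 0.171 and 0.972 CPM to 123 and 98.4 CPM (7.46 ± 0.40). *Pmepa1*, a feedback inhibitor induced by TGF-β and activin, rose from 19.8 and 14.3 CPM to 954 and 1033 CPM (5.87 ± 0.22) and *Skil*, another, from 34.5 and 31.9 CPM to 136 and 132 CPM (2.01 ± 0.17). Of the 18 kept genes of TGF-β and activin signalling, 10 were called higher and 2 lower, with a median log2 fold change of 1.93.

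Several of the largest gains were outside the lists. *Ppbp*, a CXC chemokine gene best known from platelets (chr5:90916371-90917930 on GRCm39), was at 0 in both *in vivo* libraries and at 807 and 587 CPM in 2D, at least 1502-fold higher over the floor. *Tm4sf1*, a membrane protein gene, was at 0 and 0.416 CPM *in vivo* and 1130.3 and 881 CPM in 2D, a ratio of 4386-fold (95% counting interval 1500.4 to 21272). *Lgr6*, an R-spondin receptor of epithelial stem cells, was at 0 *in vivo* and 75.8 and 96.7 CPM in 2D, and *Dgkk*, a diacylglycerol kinase gene, at 0 and 113 and 122 CPM. Also among the 15 leading genes were the protease gene *Prss22*, the collagen genes *Col8a1* and *Col4a3*, *Ttc9*, the ATP-gated channel gene *P2rx2*, the polarity gene *Crb3*, and *Dynap*, all at 0 in both *in vivo* libraries and between 19.5 and 77.3 CPM in each 2D library. DESeq2's Wald test called neither *Col4a3* nor *P2rx2*. As with the falls, the ranking by fitted fold change favours genes at 0, and *P2rx2* was at least 57.2-fold higher over the floor.

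The cells in 2D carried transcripts of a provisional matrix. Of 15 matricellular genes, 13 were called higher and 1 lower, with a median log2 fold change of 2.51. *Fn1*, fibronectin, rose from 655 and 713 CPM to 3058 and 4761 CPM (2.51 ± 0.20) and *Ecm1* from 1.88 and 1.25 CPM to 593 and 604 CPM (8.59 ± 0.27). *Tnc*, tenascin C, rose by less, from 599.7 and 584 CPM to 991 and 1139 CPM (0.85 ± 0.14), and the cross-linking enzyme gene *Lox* from 0.341 and 5.55 CPM to 189.6 and 225 CPM (6.04 ± 0.43). Proteases of the matrix and their inhibitors rose with it, with 12 of 17 called higher and 4 lower. *Plau*, the urokinase gene, rose from 16.7 and 13.6 CPM to 229 and 192 CPM (3.80 ± 0.23), *Mmp14* from 157 and 174 CPM to 523 and 548 CPM (1.69 ± 0.15) and *Timp1* from 0.682 and 3.05 CPM to 194 and 205 CPM (6.65 ± 0.36). *Mmp9* and *Mmp2*, the gelatinase genes, fell, the first from 90.9 and 98.0 CPM to 17.02 and 15.2 CPM (-2.55 ± 0.22) and the second from 15.01 and 25.7 CPM to 1.43 and 0.551 CPM (-4.33 ± 0.47).

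Integrins that bind laminin, fibronectin and collagen rose together, with 10 of 12 kept genes called higher and 1 lower and a median log2 fold change of 2.61. *Itgb1*, the shared β1 chain, rose from 166 and 145 CPM to 873 and 858 CPM (2.48 ± 0.16), its laminin-binding partner *Itga3* from 10.4 and 9.72 CPM to 78.7 and 87.6 CPM (3.05 ± 0.25) and *Itgb4*, the hemidesmosomal chain, from 23.2 and 35.3 CPM to 141 and 165 CPM (2.38 ± 0.23). *Itga6*, the partner of both β chains for laminin, was at 286 and 289 CPM *in vivo* and 221 and 233 CPM in 2D and was not called (-0.34 ± 0.14, adjusted p = 0.0563), though 6 alternatives called it lower. *Itgb6*, an activator of latent TGF-β in migrating epithelium, was at 0 *in vivo* and 10.9 and 7.53 CPM in 2D. Laminin genes changed in both directions. The α1 chain gene *Lama1* rose from 2.22 and 2.22 CPM to 14.5 and 13.2 CPM (2.63 ± 0.47), while *Lama4* fell from 39.2 and 68.4 CPM to 3.94 and 1.29 CPM (-4.35 ± 0.37). *Lamb1* (313 and 381 against 314 and 361 CPM) and *Col4a1* (289 and 299 against 254 and 259 CPM) were not called. Of the 18 laminin and basement membrane genes, 7 were called higher and 4 lower, the latter 2 without 2D replicate 1 or without *in vivo* replicate 2. Over all genes, 21.5% were called higher and 24.7% lower.

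Keratins of simple and of basal epithelia rose, with 10 of 13 kept genes called higher and 1 lower. *Krt7*, of simple duct epithelia, rose from 33.8 and 22.9 CPM to 1719.6 and 1723 CPM (5.93 ± 0.25, adjusted p = 3.39e-12), *Krt19* from 4.43 and 9.02 CPM to 271 and 278 CPM (5.32 ± 0.29) and *Krt6a*, a keratin of wounded epithelium, from 4.43 and 8.88 CPM to 328 and 321 CPM (5.57 ± 0.26). The cortical keratins *Krt8* and *Krt18* rose by smaller factors. *Krt8* was at 371 and 455 CPM *in vivo* and 1008 and 886 CPM in 2D (1.20 ± 0.16), and *Krt18* at 1631 and 1800.5 CPM and 3544 and 3122 CPM (0.96 ± 0.14). Keratin 8 transcript was thus higher in libraries in which every cortical TEC gene of the list was lower. *Krt15*, of basal progenitors, fell from 7.50 and 10.8 CPM to 1.97 and 3.49 CPM (-1.76 ± 0.32).

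Cell-cell junction genes rose for 14 of 18 members and fell for 0, with a median log2 fold change of 1.92. *Cdh1*, E-cadherin, rose from 439 and 419 CPM to 1474 and 1434 CPM (1.76 ± 0.14), *Cldn3* from 4.78 and 3.75 CPM to 308 and 322 CPM (6.21 ± 0.22) and *Cldn6*, a claudin of embryonic epithelia, from 3.41 and 0.416 CPM to 412 and 408 CPM (7.83 ± 0.38). *Ctnnb1*, the β-catenin gene, was not called (709.9 and 669.9 against 762 and 736 CPM). Desmosomal genes changed in both directions, with 7 of 11 called higher and 3 lower. *Pkp1* rose from 21.5 and 29.3 CPM to 125 and 145 CPM (2.40 ± 0.27), while *Dsc3* fell from 111 and 88.6 CPM to 34.4 and 29.6 CPM (-1.64 ± 0.19). Among regulators of the epithelial and mesenchymal state, *Snai2*, which represses E-cadherin, fell from 253 and 249 CPM to 38.7 and 39.5 CPM (-2.68 ± 0.17), and *Klf5*, a factor of proliferating epithelia, rose from 19.1 and 33.9 CPM to 120.1 and 125 CPM (2.20 ± 0.21). *Vim*, the mesenchymal filament gene, rose from 99.1 and 69.7 CPM to 199 and 150.3 CPM (1.05 ± 0.21). In this list 7 of 16 were called higher and 5 lower, 3 without 2D replicate 2 or without *in vivo* replicate 1. The list pools epithelial and mesenchymal regulators, so these counts cannot show whether the state moved in a single direction. Of 9 progenitor and Ly6 markers, 6 were called higher and 0 lower. *Plet1*, a marker of the thymic rudiment, rose from 6.31 and 7.36 CPM to 116 and 93.8 CPM (3.93 ± 0.21) and *Ly6a*, which encodes Sca-1, from 5.80 and 5.69 CPM to 86.9 and 71.8 CPM (3.78 ± 0.27), with 32.9% of its 3′ sequence shared with related genes.

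Genes of calcium-binding and phospholipid-binding proteins rose, with 16 of 19 annexin, S100 and galectin genes called higher and 0 lower. *Anxa1*, an anti-inflammatory annexin, rose from 21.1 and 22.1 CPM to 3344 and 2588 CPM (7.10 ± 0.30) and was among the 5 largest gains in CPM. *S100a6* rose from 4.26 and 5.97 CPM to 2098 and 1915 CPM (8.59 ± 0.35), and *Lgals3* from 1.023 and 5.41 CPM to 185 and 196 CPM (5.81 ± 0.41). Of 11 EGF family genes, 10 were called higher and 0 lower, with a median log2 fold change of 3.08. *Hbegf*, a ligand of the EGF receptor, rose from 3.07 and 7.50 CPM to 233 and 202 CPM (5.32 ± 0.31), and the ligands *Areg* and *Ereg* from at most 0.972 CPM to between 7.53 and 16.8 CPM, *Areg* without a call by DESeq2's Wald test. The receptor gene for the FGF7 in the medium went the other way. *Fgfr2*, whose epithelial isoform binds FGF7, fell from 216 and 190.4 CPM to 25.8 and 20.4 CPM (-3.13 ± 0.21). Of 15 ERK feedback genes, 5 were called higher and 4 lower, beside 21.5% higher and 24.7% lower over all genes. *Dusp5* rose from 31.9 and 23.0 CPM to 91.2 and 63.9 CPM (1.501 ± 0.29) and *Dusp6* was not called (88.0 and 89.8 against 135 and 99.5 CPM).

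Inflammatory chemokines and cytokines were called higher for 9 of 17 kept genes and lower for 2. *Cxcl5*, a neutrophil chemokine, rose from 0.853 and 13.5 CPM to 179.9 and 181 CPM (4.58 ± 0.48), and *Lcn2*, an iron-binding protein of inflamed epithelia, from 1.36 and 16.2 CPM to 184 and 175 CPM (4.29 ± 0.46). Both were higher in *in vivo* replicate 2 than in replicate 1. Neither overlapped with 2D, which was also so for 72.4% of all genes. *Cxcl10*, an interferon-induced chemokine, fell from 145 and 138 CPM to 10.6 and 9.73 CPM (-3.80 ± 0.23), as did the NF-κB inhibitor gene *Nfkbia*, from 834 and 954 CPM to 341 and 312 CPM (-1.45 ± 0.15).

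Genes of glycolysis and of sterol synthesis rose. Of 22 glycolysis and hypoxia genes, 19 were called higher, 11 without 2D replicate 2, and 1 lower. *Slc16a3*, the lactate exporter, rose from 2.05 and 1.25 CPM to 42.1 and 66.6 CPM (5.05 ± 0.40), *Ndrg1* from 24.7 and 15.7 CPM to 153 and 243 CPM (3.30 ± 0.29) and *Tpi1*, a glycolytic isomerase, from 117 and 118 CPM to 292 and 302 CPM (1.34 ± 0.15). *Car9*, a carbonic anhydrase induced by low oxygen, was at 0 *in vivo* and 20.8 and 23.9 CPM in 2D, at least 48.1-fold higher. *Ldha* rose from 304 and 248 CPM to 726 and 879 CPM (1.54 ± 0.16), with 10.3% of its 3′ sequence shared. Mitochondrial transcripts fell, *mt-Nd1* from 3732 and 3517 CPM to 1701 and 1934 CPM (-0.996 ± 0.15) and *mt-Nd4* from 4982 and 4230.1 CPM to 2549 and 3403 CPM (-0.63 ± 0.17), the latter not called without 2D replicate 1 or without *in vivo* replicate 1. Cholesterol synthesis genes were called higher for 18 of 24 members and lower for 0, with a median log2 fold change of 1.35. *Cyp51* rose from 45.5 and 44.7 CPM to 207 and 191 CPM (2.14 ± 0.16) and *Hmgcs1* from 184 and 153 CPM to 317 and 299.6 CPM (0.87 ± 0.16). Of 18 NRF2 targets, 12 were called higher and 2 lower, yet *Nqo1*, a classical target, fell from 306 and 296 CPM to 18.3 and 11.9 CPM (-4.31 ± 0.20). *Srxn1* rose from 52.7 and 52.3 CPM to 121 and 117 CPM (1.18 ± 0.19).

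Some lists were balanced between directions, beside 21.5% higher and 24.7% lower over all genes. Of 19 genes of the endoplasmic reticulum stress and amino acid responses, 6 were called higher and 6 lower, each 3 with 1 library left out (*in vivo* replicate 2 for those higher, any of the other 3 libraries for those lower), and the chaperone gene *Hspa5* was not called (1105 and 941 against 1013 and 786 CPM). *Asns*, asparagine synthetase, rose from 26.6 and 26.1 CPM to 81.0 and 93.6 CPM (1.73 ± 0.21). Of 13 imprinted growth genes, 4 were called higher and 6 lower, 3 without *in vivo* replicate 2. *H19* fell from 538 and 308 CPM to 58.1 and 80.0 CPM (-2.61 ± 0.39), and *Gnas* rose from 981 and 806 CPM to 1613 and 1499 CPM (0.80 ± 0.14). Among IGF genes, 3 of 12 were called higher and 4 lower, and *Igfbp7* rose from 0.682 and 0.694 CPM to 117 and 99.5 CPM (7.26 ± 0.41). The medians of the imprinted and IGF lists, 0.03 and 0.01 on the log2 scale, changed sign without scaling beyond library size.

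**Figure D5:**
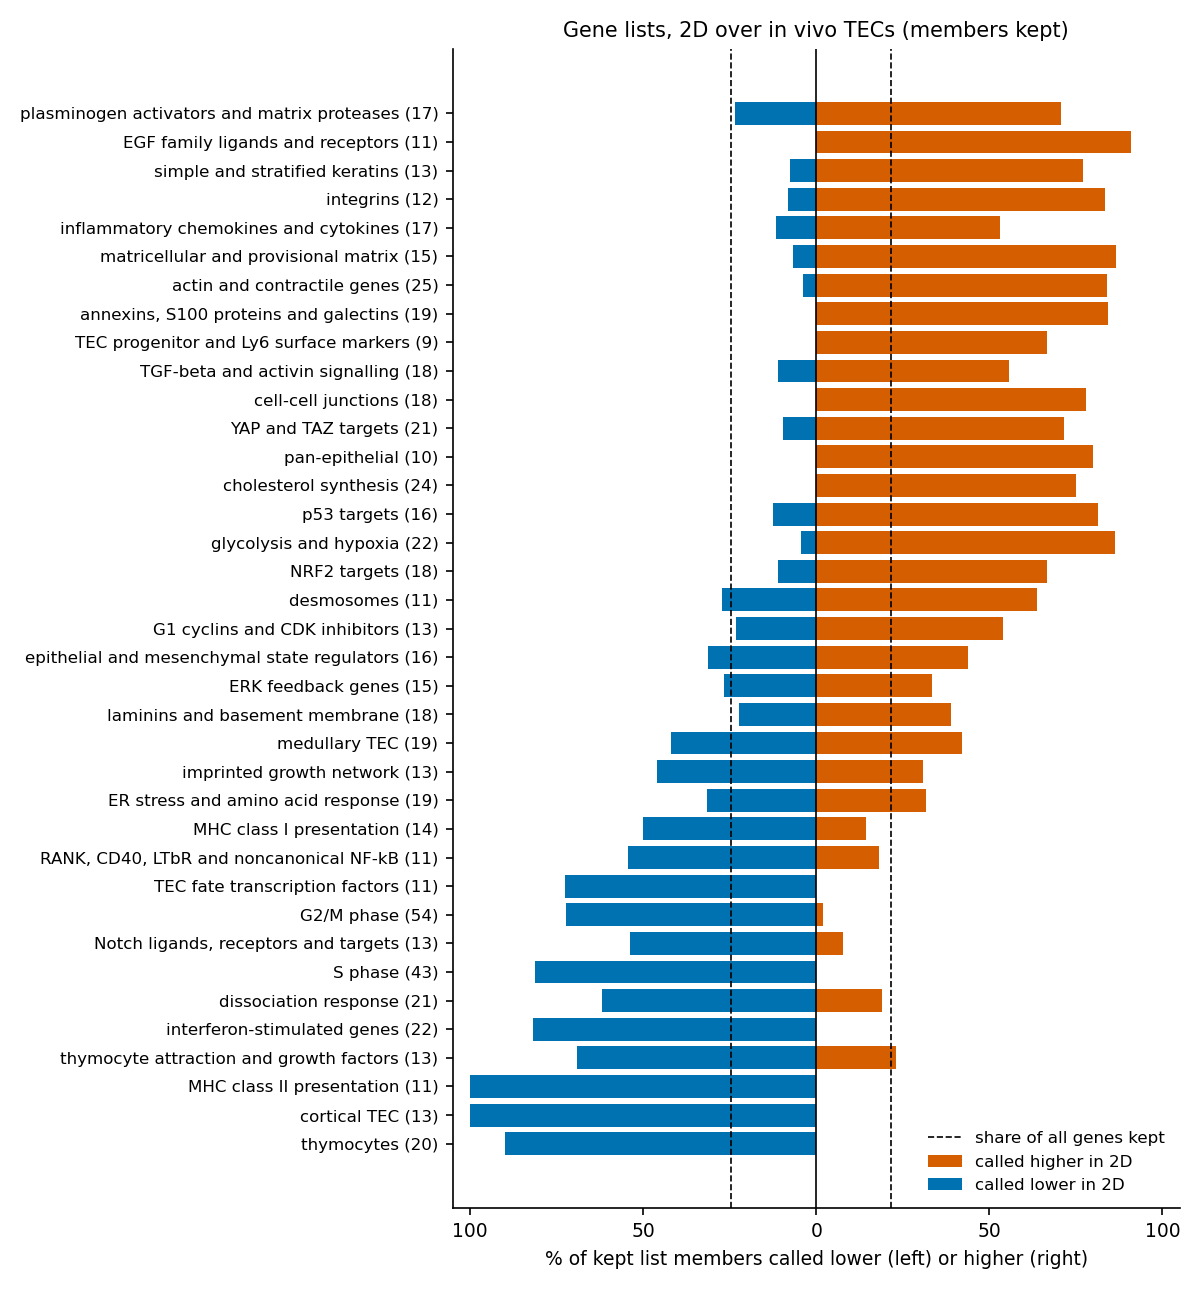
Percent of kept members of each gene list called lower (left) and higher (right) in 2D-cultured over *in vivo* TECs, with dashed lines at the share of all genes, 24.7% lower and 21.5% higher. All 13 cortical and 11 class II members are called lower, and 21 of 25 contractile and 16 of 19 annexin, S100 and galectin members higher.

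D3 organoids, which had also spent 3 days in TEC medium, within Matrigel, were compared with the 2D libraries to set the changes above beside another culture. The 2D libraries are part of both comparisons, so the 2 sets of fold changes are not independent. Over the same genes, 2836 (19.7%) were higher and 2698 (18.8%) lower in 2D-cultured TECs than in D3 organoids. The filter had used the *in vivo* and 2D libraries, so genes expressed in organoids alone were left out. With a filter of 1 CPM in at least 3 of all 8 libraries, 2684 genes were higher and 2898 lower. Without scaling beyond library size, 2028 were higher and 3663 lower. Contractile genes were called higher in 2D for 22 of 25, and *Tpm1* was at 306 and 234 CPM in organoids (2D over D3 3.64 ± 0.17). *Fn1* was at 44.7 and 60.9 CPM in organoids (2D over D3 6.21 ± 0.24), *Krt7* at 31.2 and 25.3 CPM (5.93 ± 0.25) and *Cldn4* at 54.9 and 54.3 CPM (4.38 ± 0.17). Values of these genes in organoids were below both 2D libraries, and those of *Fn1* were also below both *in vivo* libraries. Dividing-cell transcripts were also fewer on the plate than in Matrigel, with 43 of 43 S-phase and 47 of 54 G2/M genes lower in 2D and *Mki67* at 361 and 338 CPM in organoids (2D over D3 -2.39 ± 0.17).

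Cortical genes fell into separate sets by their organoid values. *Psmb11* (0.509 and 0.983 CPM), *Tbata* (0.678 and 0.140 CPM) and *Dll4* (0.170 and 0.702 CPM) were near the floor in organoids as well. *Foxn1* was at 8.81 and 9.69 CPM in organoids and did not differ by the test from 2D (-0.49 ± 0.29, adjusted p = 0.207). *Cxcl12*, in contrast, was at 255 and 265 CPM in organoids (2D over D3 -5.48 ± 0.19), *Kitl* at 198 and 189 CPM (-3.67 ± 0.18) and *Ackr4*, the scavenging chemokine receptor gene, at 155 and 174 CPM (-5.86 ± 0.33), where the 2D libraries had 4.66 and 0.918 CPM. *Trp63* was at 76.1 and 73.8 CPM (-2.41 ± 0.19) and *Fgfr2* at 178 and 169 CPM (-2.91 ± 0.21) in organoids, above both 2D libraries. *Ctsl* was the reverse, at 125 and 130.4 CPM in organoids and higher in 2D (2.36 ± 0.16). Of the 13 cortical genes, 3 were called higher and 5 lower in 2D than in organoids. Medullary list genes were called higher in 2D for 11 of 19 and lower for 0, *Ccl21a* being at 1.53 and 0.983 CPM in organoids. Glycolysis genes were called higher in 2D for 15 of 22, with *Slc16a3* at 0 and 0.140 CPM in organoids, and cholesterol synthesis genes lower for 9 of 24, with *Hmgcs1* at 679 and 552 CPM in organoids (2D over D3 -0.998 ± 0.16).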

How the data were processed

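Bulk 3′ RNA sequencing (QuantSeq) was analysed for 4 groups of 2 libraries. Reads were mapped with STAR by the authors (GRCm39), who deposited unnormalized, unfiltered read counts per Ensembl gene. The submitters' processing notes name R 4.1.2, edgeR and limma for their own tests. Whether counting was stranded, its annotation and its handling of multi-mapping reads are not given in the sources used here, so overlapping and antisense genes cannot be told apart. Symbols and positions came from GENCODE vM39 (56236 of 56923 IDs matched).

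The filter was 1 CPM in 2 or more of the 4 *in vivo* and 2D libraries, which kept 14363 genes. Library sizes were scaled by TMM, with factors between 0.888 and 1.09. The 2D-cultured TECs were compared with *in vivo* TECs, and with D3 organoids, by edgeR's quasi-likelihood test on the counts, in 1 model of all 8 libraries. The p-values were adjusted by the Benjamini-Hochberg method across the kept genes. The tools were R 4.3.3, edgeR 4.0.16, limma 3.58.1 and DESeq2 1.42.0, with pandas and matplotlib for tables and plots. A gene at 3 counts or fewer in both libraries of a group was taken as at the floor there, and its fold change is given as a bound or as a ratio of counts with an exact interval, which covers counting error only. Data were simulated at these depths with 200 of 14363 genes changed. There 37% of 2-fold and 75% of 4-fold changes were called, and 7 unchanged genes were called. Far fewer genes changed there than the 46.2% called between 2D-cultured and *in vivo* TECs, so these shares do not carry over to that comparison. The chi-square of replicate counts over genes was between 7.09 and 9.01 per degree of freedom, above sampling noise.

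The gene lists and the genes compared were chosen with earlier results of these data known, so no count over a list is independent support. Some genes are members of several lists. Genes named are, in each direction, the 15 with the largest fitted fold change (called, without overlap, both higher libraries at 10 CPM or above, no clone or model name) and the 5 with the largest difference in CPM, and members of the lists. For lists of up to 13 genes any member may be named, and for longer lists the 4 most abundant members and the 4 that changed most in each direction. *Vcl*, *Srf*, *Cnn2*, *Amotl2*, *Axl*, *Ccn1* and *Ptpn14* are outside this rule and were named for words in their promoters, after their values were seen. *Myh11* is outside it too and was named beside *Acta2* and *Tagln*, after its values were seen. Promoters are the 250 bases before the start of the canonical transcript in GENCODE, and other transcripts of a gene can start elsewhere. Of the 50-base words in the last 500 bases of each transcript, the share found in other genes is given where it is at least 10%, and for *Actb*. Of the genes named other than *Myh11*, 8 reached this share and 70 overlapped a gene on the other strand. Alternatives were DESeq2's size factors and Wald test, limma-voom, no normalization, other filters, the 4 libraries alone, no ribosomal RNA genes, a fold limit, a replicate block and each library left out. Some genes and sequences that the rules above would name are not reported here.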

Additional observations from a re-analysis of the deposited data

How the results depend on the processing

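The counts of genes that differed between 2D-cultured and *in vivo* TECs were 3092 higher and 3548 lower. With each library left out in turn they were between 2403 and 2880 higher and between 2657 and 3104 lower. Requiring at least a 2-fold change left 1993 higher and 2703 lower. Requiring a mean of 10 CPM, which tests fewer genes, left 2441 higher and 2159 lower, so that more genes were higher than lower, the opposite of the counts above. Against D3 organoids, 2836 genes were higher in 2D and 2698 lower, and 1841 and 1873 with at least a 2-fold change. Replicate numbers are shared by the groups in the labels. The deviations of same-numbered libraries correlated at r = 0.139 between *in vivo* and 2D over genes, and the numbers are not stated to mark a shared litter or day, so the pairing was not used. With a replicate block, 3276 genes were higher and 3631 lower. Of the 198 genes named in the text other than *Myh11*, none reversed in any alternative that was run. In at least 1 alternative, 23 lost a call. Of these, 10 lost it with the 2-fold limit alone, and 5 lost it with a library left out (*Cdkn1c*, *Ctss*, *Enpep*, *mt-Nd4* and *Traf1*). The causes of these shifts were not tested. At this depth a gene at 0 in both libraries of a group may have been present at up to 3 counts in each.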
